A study of Mus musculus with 46 samples.

Results

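The poly(A) transcripts of murine EPP2 cells that had lost Ctu1 were compared with those of control cells while both were held in torin 1. The comparison rests on 8 RNA-seq libraries, replicates 1 to 4 of each genotype, out of 46 RNA-seq and ribosome footprint libraries in all. All 9913 gene symbols that stand on 1 entry of the torin 1 tables were members, out of 9936 entries, and 9662 of them averaged 10 counts or more per library and were tested. Replicates 5 and 6 of both genotypes were left out because their RNA profiles went against their labels, so the choice of libraries used the RNA data itself, and results with them are given beside the main ones.

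EPP2 is a murine pancreatic cancer line, used as a clone grown from a single cell with Cas9 under a doxycycline-inducible promoter. Ctu1 was disrupted in a pool of such cells that carried paired guide RNAs against Ctu1 (Ctu1 iKO), with 300 ng/ml doxycycline for 4 days before the experiment, so that cells with different edits were lysed together. The labels call the other genotype control or WT. The labels give the same doxycycline treatment for all libraries, controls included. The methods of the study name as controls either guide RNAs for non-coding stretches of chromosomes or cells kept without doxycycline, and which guides the control libraries carried is not given in the sources used here. All 8 cultures received 300 nM torin 1 for 2 h, and the parallel cultures that are set beside them received DMSO for 2 h. The labels do not say that replicates came from separate cultures. The methods of the study describe a pair of biologically independent replicates made on consecutive days for the footprints, without saying which libraries formed a pair. The libraries themselves fell into pairs, since the variance between Ctu1 iKO 1 and 2 was 72.4 times that of counting (with counts divided by 2, since all were even) and between 3 and 4 it was 81.2 times, against 204 to 404 times across these pairs, and in control it was 49.8 and 59.7 against 102 to 182. A figure legend of the study counts the replicates of this footprint experiment as independent. Per the methods, RNA for sequencing was taken from the lysates of the footprint experiments. Another legend gives 2 independent experiments for RNA sequencing of Ctu1 iKO cells, without naming torin 1. Whether the 4 libraries of a group were 4 independent experiments is thus not settled by these sources, and p-values measure only the spread between these samples, which may be partly technical.

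Ctu1 and its partner Ctu2 form the enzyme that places a sulfur on the wobble uridine (U34) of the cytosolic tRNAs for lysine, glutamine and glutamate. The thiolated uridine helps these tRNAs to read codons that end in A, among them AAA. The Elongator complex and Alkbh8 build the side chain of the same base, and Urm1 and Nfs1 belong to the route that delivers the sulfur. Torin 1 blocks the kinase mTOR, which in growing cells drives translation of ribosomal protein mRNAs, lipid synthesis and the cell cycle and restrains lysosome genes. Uncharged tRNA and stalled ribosomes are known to activate the integrated stress response, in which the transcription factor ATF4 raises genes of amino acid synthesis and transport.

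The guide RNAs of the study are shown because they define where the locus was cut. Both pairs lie in the coding part of exon 2 of the 3 exons of Ctu1 (ENSMUSG00000038888.8, chr7:43672016-43678298 of GRCm38, plus strand, coding length 1260 bases). The target starts of the first pair are 143 bases apart and those of the second 170 bases apart, and which pair the libraries carried is not given in the sources used here. Lower case gives the bases matched by the guide, and capitals mark the adjoining PAM, read from the reference genome 5′ to 3′ on the strand of the guide.
First guide of pair 1, chr7:43675332-43675349, minus strand: gcacgtgtgccagcactgTGG
Second guide of pair 1, chr7:43675475-43675492, minus strand: gtaggccacgatggtgagCGG
First guide of pair 2, chr7:43675314-43675332, minus strand: gtggagtccttgccaccagAGG
Second guide of pair 2, chr7:43675484-43675503, plus strand: gtggcctacgaagatctcttCGG

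RNA-seq counts summed to between 142349148 and 274621336 in the control libraries and to between 131423344 and 252733758 in the Ctu1 iKO libraries, and every RNA count was an even number. Ctu1 itself has no value with torin 1 among the members. In DMSO replicates 1 to 3 its transcript was at 4.76, 4.54 and 4.57 CPM (counts per 1000000 counts of a library) in control and at 4.57, 4.37 and 4.96 CPM in Ctu1 iKO (log2 change 0.02 ± 0.11, SE, edgeR adjusted p = 0.926), so that the RNA level did not separate the genotypes there. Each library of replicates 3 to 6 was also set against axes built from replicates 1 and 2 over 9551 genes. Control and Ctu1 iKO replicates 3 and 4 with torin 1 lay on the side of their labels, with correlations of -0.431 and -0.237 (control) and of 0.457 and 0.546 (Ctu1 iKO) along the genotype axis, and of 0.466 to 0.705 along the torin 1 axis. The libraries labelled control 5 and 6 with torin 1 had 0.326 and 0.262 along the genotype axis and those labelled Ctu1 iKO 5 and 6 had -0.368 and -0.508, which is the opposite side, and all 4 were below 0 along the torin 1 axis. The markers of the cell type were checked too. Of 25 epithelial markers 6 were listed, Krt8, Krt18, Krt19, Ocln, Tjp1 and Sox9, while the defining genes Epcam and Cdh1 were not among the entries, and 15 of 16 mesenchymal markers were listed. No entry stood for any of 18 immune, 9 endothelial or 18 acinar and islet markers. Every entry reached 100 or more footprint counts in some library, so absence from the entries does not show that RNA was absent.

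**Figure D1:**
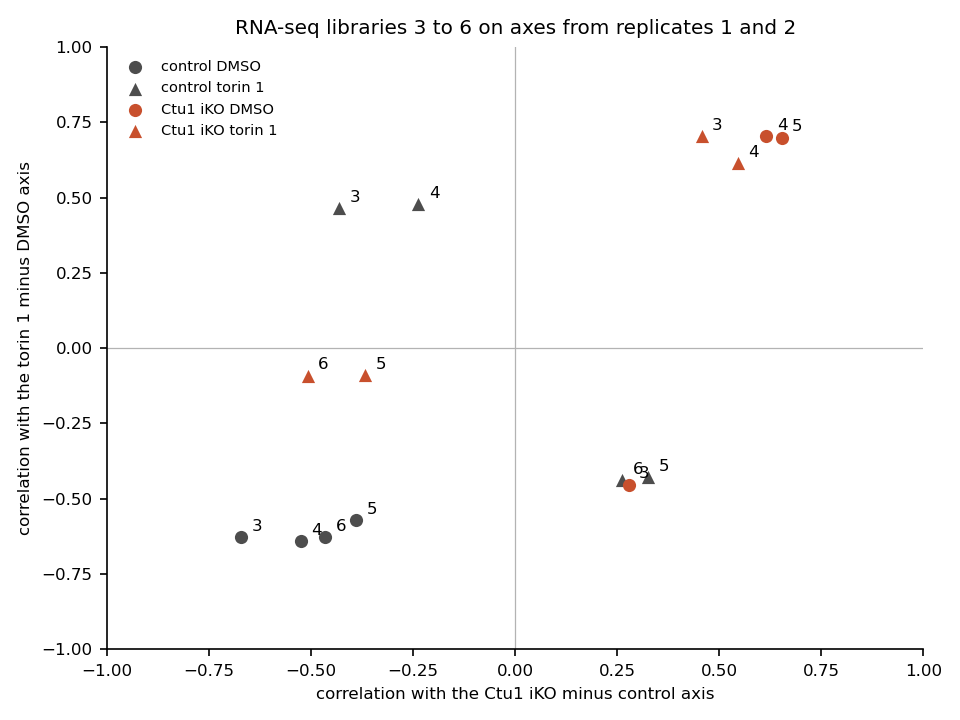
Correlation of each RNA-seq library of replicates 3 to 6 (numbers beside points) with the difference between Ctu1 iKO and control (x axis) and between torin 1 and DMSO (y axis), both axes computed from replicates 1 and 2 over 9551 genes. Control and Ctu1 iKO replicates 3 and 4 with torin 1 sit at the upper left and upper right, whereas the libraries labelled torin 1 replicates 5 and 6 sit below 0 on the y axis and on the other side of 0 from their genotype, and those labelled Ctu1 iKO DMSO 4 and 5 sit at 0.615 and 0.653 on the x axis and near 0.7 on the y axis.

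With torin 1, 14 of 30 integrated stress response genes, 16 of 37 cytoskeleton genes, 14 of 46 lysosome genes and 8 of 33 interferon genes were called higher in Ctu1 iKO than in control, and 16 of 51 mitotic genes were called lower. Without control 2 these counts were 8, 6, 7, 1 and 2, and without control 3 they were 7, 5, 7, 2 and 4. Atf5, a transcription factor of the stress response, was 3.14-fold higher, and Acta2, smooth muscle actin, was 4.07-fold higher. Cenpa, the histone of the centromere, was 1.398-fold lower. Ribosomal protein transcripts did not pass the test in either direction. Of 9662 genes tested, 840 were called (8.69%) with edgeR's quasi-likelihood test at a Benjamini-Hochberg adjusted p under 0.05. Of these, 476 were higher in Ctu1 iKO (4.93%) and 364 were lower (3.77%). The median size of a called change was 0.46 on the log2 scale, the median over all genes tested was -0.01, and 1758 genes (18.2%) had CPM values that did not overlap between the genotypes, 879 in each direction (9.1%). When libraries were scaled by their totals alone, 403 of 935 called genes were higher and 532 lower, or 43.1% higher in place of 56.7%.

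Libraries with the same replicate number deviated together, as did those of replicates 1 and 2 and of replicates 3 and 4, and with a replicate block 3232 genes were called (33.5%), 1541 higher (15.9%) and 1691 lower (17.5%), with all 840 genes among them. With DESeq2, 1633 genes were called (16.9%), 9.26% of all genes higher and 7.64% lower. In replicates 1 and 2 alone 12 genes were called, all of them higher. In replicates 3 and 4 alone 1151 were called (11.9%), 6.15% higher and 5.75% lower. The number of genes that passed changed when 1 library was left out, while all 840 kept their sign in each such fit. Such fits also had fewer libraries, and why calls were lost was not tested. The count was 189 without control 2, 209 without control 3, 445 without control 4, 459 without Ctu1 iKO 2 and 388 without Ctu1 iKO 4. The 364 lower calls became 43 without control 2, 66 without control 3 and 125 without Ctu1 iKO 4. The 476 higher calls became 146, 143 and 263 in these fits. Without control 2, 77.2% of the calls were higher, against 56.7% in the main fit. With the libraries labelled replicates 5 and 6 added, no gene was called by edgeR and 249 had an unadjusted p under 0.05. In those 4 libraries alone, 246 of 9687 genes were called (2.54%), and 769 of the 840 genes had the opposite sign there while 71 had the same one. Over all genes tested, 6640 of 9660 had the opposite sign there. The same sign was thus kept by 31.3% of all genes and by 8.5% of the 840. None of the 110 genes called both there and in replicates 1 to 4 had the same direction.

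The largest increases were found in genes of unlike function. Atf5 (chr7:44812256-44816658) was at 55.7, 48.1, 38.3 and 36.3 CPM in control replicates 1 to 4 and at 154.7, 146.6, 119.1 and 139.6 CPM in Ctu1 iKO replicates 1 to 4. The lowest Ctu1 iKO library was above the highest control library, and the log2 change was 1.65 ± 0.15 (SE, n = 4 per group, edgeR adjusted p = 0.00126). Dynap, a gene for a membrane protein that binds dynactin, was at 5.34, 5.21, 5.398 and 7.105 CPM in control and at 18.7, 17.7, 20.9 and 28.5 CPM in Ctu1 iKO. These groups were also apart, although control 4 stood above the other controls, with a log2 change of 1.89 ± 0.17 (SE, edgeR adjusted p = 0.00126). Txnip (chr3:96557957-96561883), which binds thioredoxin and restrains glucose uptake, was at 10.7, 8.47, 11.7 and 16.03 CPM in control and at 43.3, 30.1, 35.3 and 50.4 CPM in Ctu1 iKO. Its groups did not overlap, and its log2 change was 1.76 ± 0.21 (SE, edgeR adjusted p = 0.00364).

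Of the other large increases, Grem1, an antagonist of bone morphogenetic proteins, rose from 21.8 ± 6.6 CPM to 61.6 ± 12.4 CPM (SD, n = 4 each), a 2.82-fold change (edgeR adjusted p = 0.00775). Nrg1, a ligand of ErbB receptors, was at 1.91 to 2.64 CPM in control and at 10.3, 7.21, 4.38 and 4.83 CPM in Ctu1 iKO, so that replicates 1 and 2 were higher than replicates 3 and 4 in the iKO group alone (log2 change 1.58 ± 0.26, SE, edgeR adjusted p = 0.0108). Sema3c, a semaphorin guidance ligand, went from 4.42 to 5.13 CPM up to 10.03 to 14.97 CPM, and Nptx1, a neuronal pentraxin, from 5.17 to 8.45 CPM up to 16.8 to 24.6 CPM. Gadd45a, a stress-induced growth regulator, was at 3.05 to 3.77 CPM in control and at 7.41 to 9.31 CPM in Ctu1 iKO (log2 change 1.30 ± 0.12, SE, edgeR adjusted p = 0.00126). Anxa8, an annexin, had the largest log2 change of the increases, 2.14 ± 0.47, but also the widest spread, from 4.98 to 20.15 CPM in Ctu1 iKO against 1.49 to 3.33 CPM in control, and its call was lost in 3 of 8 fits that left out 1 library (control 1, 2 or 3, edgeR adjusted p up to 0.082, without control 2). The other genes of the 15 largest increases were Acta2, Ifi27, Ifi207, Klra4, Myzap and Col15a1, and of these Ifi207 lost its call without control 2 and without control 3 (edgeR adjusted p up to 0.0657).

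The largest decreases were smaller in size. Lmtk3, a membrane kinase, was at 2.99, 2.47, 3.10 and 3.35 CPM in control and at 1.09, 1.17, 0.787 and 0.650 CPM in Ctu1 iKO. It was 3.25-fold lower on a mean of 379 counts per library, with no overlap (log2 change -1.70 ± 0.21, SE, edgeR adjusted p = 0.00422). Nup210, a nuclear pore glycoprotein, fell from 6.57 ± 0.39 to 2.91 ± 0.62 CPM (SD, n = 4 each, log2 change -1.18 ± 0.15, SE, edgeR adjusted p = 0.0052), and Dnmt3b, a de novo DNA methyltransferase, from 8.41 ± 0.50 to 4.24 ± 0.54 CPM (log2 change -0.98 ± 0.12, SE, edgeR adjusted p = 0.0029). Gls2, a mitochondrial glutaminase, was at 26.1, 27.8, 30.7 and 30.8 CPM in control and at 17.9, 17.7, 17.7 and 17.8 CPM in Ctu1 iKO. The iKO values lay within 0.3 CPM of each other and below all controls (log2 change -0.70 ± 0.08, SE, edgeR adjusted p = 0.0029). Rps6ka1, the MAPK-activated kinase RSK1, was at 218.8 to 243.8 CPM in control and at 122.5 to 159.7 CPM in Ctu1 iKO, a decrease of 1.64-fold. Slc16a3, the lactate exporter MCT4, was 1.69-fold lower, at 105.0 to 136.4 CPM against 182.8 to 239.6 CPM. The other genes of the 15 largest decreases were Nqo1, Msx1, Rassf6, Clcn2, Ccdc18, Ccdc85c, Rrp1b, Ndrg2 and Sapcd2. Some of these calls were lost in fits that left out 1 library. Nqo1 was not called without control 2, 3 or 4 or Ctu1 iKO 2 (edgeR adjusted p up to 0.0748), Msx1 without control 1, 2 or 3 or Ctu1 iKO 1 or 4 (up to 0.0849), and Rassf6 without control 2 (0.051). Ccdc18 was not called without control 1, 2 or 3 or Ctu1 iKO 2 or 4 (up to 0.0801) and Clcn2 without any 1 of the 4 controls or Ctu1 iKO 3 or 4 (up to 0.104).

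**Figure D2:**
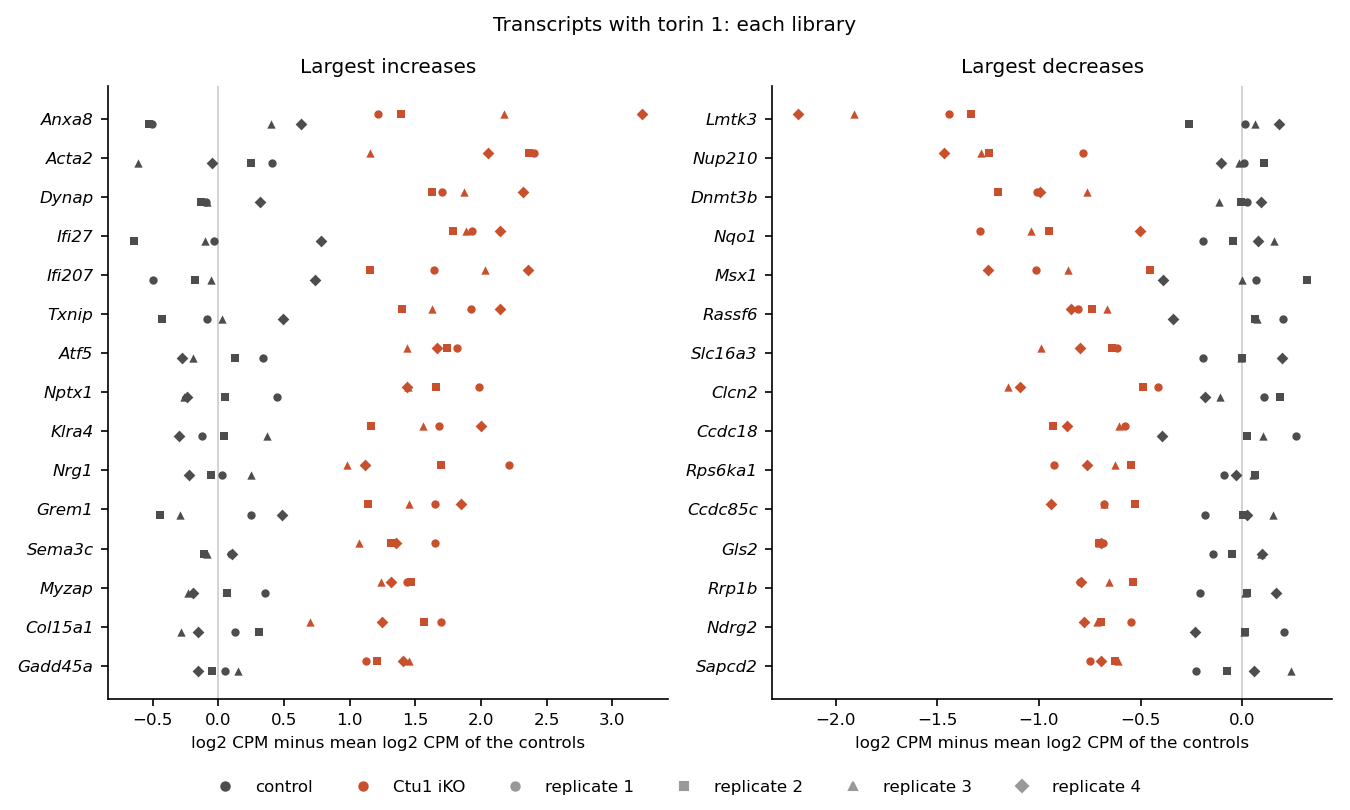
CPM of the 15 genes with the largest called increases (left) and decreases (right) in each of the 8 libraries, as log2 CPM minus the mean log2 CPM of the 4 controls, with black for control, orange for Ctu1 iKO and 1 marker shape per replicate number. In each of the 30 genes the 4 Ctu1 iKO points lie on 1 side of the 4 control points, most widely for Dynap and Atf5 and most narrowly for Msx1, Ccdc18 and Clcn2.

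Of 30 genes of the integrated stress response and of amino acid supply, 14 were called higher and 0 lower, with a median log2 change of 0.38 against -0.01 over all genes tested. Atf4, the factor at the centre of the response, was at 128.4, 144.6, 143.2 and 132.4 CPM in control and at 195.8, 210.0, 189.3 and 211.0 CPM in Ctu1 iKO (log2 change 0.56 ± 0.07, SE, edgeR adjusted p = 0.00534). Ddit3, the pro-death factor CHOP, was 1.95-fold higher, at 10.6 to 13.9 CPM against 5.70 to 6.48 CPM. The other called members were Atf5, Trib3 and Nupr1, which are stress regulators, Cebpg, a partner of ATF4, the enzymes of asparagine, serine, proline, cysteine and folate metabolism Asns, Phgdh, Psat1, Psph, Pycr1, Cth and Aldh1l2, and Slc3a2, a subunit of amino acid transporters. Aldh1l2 had the largest enzyme change, 1.20 ± 0.28 (SE, log2), with control values of 64.8, 53.1, 35.7 and 28.9 CPM against 137.7, 124.8, 78.6 and 78.0 CPM, and was called in 3 of 8 fits that left out 1 library (edgeR adjusted p up to 0.0928, without control 3). Not all members followed. The log2 change was -0.28 for the amino acid transporter Slc38a2 (edgeR adjusted p = 0.196), -0.32 for the cystine transporter Slc7a11 (0.296) and -1.37 for the stress hormone Gdf15, which averaged only 11 counts (0.21). The replicate block gave 20 members higher and 2 lower. The count of 14 was 8 without control 2 and 7 without control 3.

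Of 20 cytosolic tRNA synthetases, which charge tRNAs with amino acids, 5 were called higher and 0 lower, with a median log2 change of 0.18. They were Sars, Nars, Tars, Lars and Gars. Sars was at 285.2 to 313.0 CPM in control and at 382.9 to 436.8 CPM in Ctu1 iKO (log2 change 0.46 ± 0.07, SE, edgeR adjusted p = 0.00807). Kars, the enzyme for the lysine tRNAs that are Ctu1 substrates, had a log2 change of 0.18 ± 0.09 (SE, edgeR adjusted p = 0.245), was higher in 4 of 4 pairs and was called with the replicate block (adjusted p = 0.0227). In the fit with a replicate block 12 were called higher, whereas the count was 3 without control 2 or control 4, 1 without control 3 and 2 without Ctu1 iKO 2 or Ctu1 iKO 4. Among 26 genes of the unfolded protein response, 2 were called, Herpud1 and Dnajb9, both higher, which is 7.7% against 4.93% of all genes. Their log2 changes were 0.61 ± 0.11 and 0.54 ± 0.13 (SE). Dnajb9 was called in 1 of 8 fits that left out 1 library, the fit without Ctu1 iKO 2 (edgeR adjusted p up to 0.118, without control 2). The replicate block gave 5 members higher, against 15.9% of all genes. The chaperone Hspa5 had overlapping groups and a log2 value of -0.24 (edgeR adjusted p = 0.536), and the median of the list was 0.08. In replicates 3 and 4 alone Hspa5 was called lower (log2 change -0.59, edgeR adjusted p = 0.00841), against a log2 change of 0.01 in replicates 1 and 2 alone.

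The promoters of the called stress response genes are shown because ATF4 binds a known composite element (CARE, TGATGNAA). It was searched on both strands from 250 bases before to 50 bases after the start of each RefSeq gene of GRCm38.p6, which gave 10001 windows for 7710 of the 9662 genes tested. The letters occurred in 4 of the 14 windows that stood for 12 called members (28.6%), in 7 of the 33 windows of all members tested (21.2%) and in 2.1% of all windows. Capitals mark the element, in either orientation, read 5′ to 3′ on the strand of the gene.
Asns, chr6:7693215-7693242, minus strand: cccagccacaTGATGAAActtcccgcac
Trib3, chr2:152344029-152344056, minus strand: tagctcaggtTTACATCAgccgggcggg
Nupr1, chr7:126625563-126625590, minus strand: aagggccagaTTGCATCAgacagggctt
Pycr1, chr11:120643834-120643861, minus strand: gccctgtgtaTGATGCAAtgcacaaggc
A match of letters is a description and not a binding site. The log2 changes of these genes were 0.65 for Asns, 0.95 for Trib3, 0.75 for Nupr1 and 0.74 for Pycr1.

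Of 33 interferon response genes, 32 had a log2 change above 0, with a median of 0.40, and 8 were called higher and 0 lower. Ifi27, an interferon-induced membrane protein gene, was at 5.77, 3.77, 5.49 and 10.1 CPM in control and at 22.5, 20.4, 21.8 and 26.1 CPM in Ctu1 iKO, and the groups did not overlap (log2 change 1.85 ± 0.26, SE, edgeR adjusted p = 0.0065). B2m, the light chain of MHC class I, rose from 91.7 to 116.9 CPM in control to 126.4 to 176.3 CPM in Ctu1 iKO, a call made in 4 of 8 fits that left out 1 library (edgeR adjusted p up to 0.0924, without control 3). The other called members were Ifit1, an RNA-binding antiviral protein, Ifih1, the sensor of double-stranded RNA MDA5, Ifi204 and Ifi207, Parp9 and Ifi35. Ifi204 and Ifi207 belong to a family of very similar genes between which reads may be split, and Ifi207 stood at no more than 1.39 CPM. Irf9, an interferon regulatory factor, had overlapping groups and a log2 change of 0.85 (edgeR adjusted p = 0.0674). The replicate block raised the count to 23. The count of 8 was 5 without control 1 or Ctu1 iKO 4, 1 without control 2 and 2 without control 3. No marker of immune cells was among the entries, all of which reached 100 or more footprint counts in some library.

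The interferon-stimulated response element (ISRE, GAAA, any 2 bases, GAAA, both strands) occurred in 4 of the 5 windows of called interferon members (80.0%), in 13 of the 34 windows of all members tested (38.2%) and in 2.9% of all windows. These windows are shown because they come from the promoters of genes that were called. Capitals mark the element in either orientation.
Ifi207, chr1:173741831-173741860, minus strand: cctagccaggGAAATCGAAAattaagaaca
B2m, chr2:122147538-122147567, plus strand: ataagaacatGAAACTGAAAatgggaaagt
Ifih1, chr2:62646206-62646233, minus strand: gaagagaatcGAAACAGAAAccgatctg
Ifit1, chr19:34640794-34640823, plus strand: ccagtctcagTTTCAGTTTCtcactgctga

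Lysosome and autophagy genes are known to be restrained by mTOR through the factors TFEB and TFE3. Of 46 members, 14 were called higher and 1 lower, with a median log2 change of 0.31. Hexa, a lysosomal hexosaminidase, was at 11.7, 9.58, 9.52 and 10.2 CPM in control and at 27.5, 21.1, 20.6 and 22.6 CPM in Ctu1 iKO (log2 change 1.16 ± 0.12, SE, edgeR adjusted p = 0.00201). The proton pump subunits Atp6v0d1 and Atp6v1b2 had log2 changes of 0.80 ± 0.09 and 0.49 ± 0.08 (SE), and Gabarap, a protein of the autophagosome membrane, of 0.70 ± 0.09 (SE). Lamp1, Gla, Npc2, Ctsb and Gpnmb of the lysosome, Map1lc3a, Map1lc3b and Atg12 of autophagy and Fnip2 were also among the members called higher. Ulk1, the kinase that starts autophagy, was lower, at 26.2 to 33.8 CPM against 39.3 to 42.0 CPM (log2 change -0.42 ± 0.09, SE, edgeR adjusted p = 0.0233), and was not called without control 2, 3 or 4 (up to 0.082). A replicate block gave 32 higher. The count of 14 was 7 without control 2 or control 3 and 9 without control 4 or Ctu1 iKO 4.

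The palindrome TCACGTGA, the core of the CLEAR element of lysosome genes, occurred in 2 of the 9 windows of called lysosome members (22.2%), in 7 of the 42 windows of all members tested (16.7%) and in 2.1% of all windows. Capitals mark it.
Atp6v0d1, chr8:105566051-105566078, minus strand: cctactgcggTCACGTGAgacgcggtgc
Gla, chrX:134601216-134601243, minus strand: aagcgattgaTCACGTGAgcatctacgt

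Of 43 genes of the mTOR pathway itself, 3 were called higher and 1 lower, near the shares of 4.93% and 3.77% over all genes, and the median log2 change was -0.03. Lamtor4 and Lamtor2, subunits of the complex that anchors mTORC1 regulators on lysosomes, had log2 changes of 0.63 ± 0.10 and 0.37 ± 0.08 (SE), and Irs1, an insulin receptor substrate, of 0.42 ± 0.11 (SE). Rps6kb1, the S6 kinase, was lower at -0.35 ± 0.07 (SE, log2). The count of 3 was 1 without control 2, 3 or 4 or Ctu1 iKO 2, and Rps6kb1 was called only without control 1 and without Ctu1 iKO 3 among the fits that left out 1 library. With the replicate block 10 were higher and 6 lower, against 15.9% and 17.5% of all genes. Of 21 genes that FoxO factors are known to raise when mTOR and AKT signalling falls, 1 was called higher, Txnip, against 4.93% of all genes, and 2 lower, Mxi1 and Rbl2, against 3.77%, and the count of 2 was 1 without Ctu1 iKO 1 or 3 and 0 without any other library. Ccng2, a cyclin of this group, was at 42.4 to 49.6 CPM in control and at 45.7, 41.4, 63.8 and 61.4 CPM in Ctu1 iKO. The groups overlapped and the gene was not called (log2 change 0.23 ± 0.14, SE, edgeR adjusted p = 0.329), yet in replicates 3 and 4 alone it was called (log2 change 0.51, edgeR adjusted p = 0.0135).

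Of 37 cytoskeletal genes, many of them targets of the factor SRF, 16 were called higher and 1 lower, with a median log2 change of 0.33. Acta2 (chr19:34241090-34255590) was at 9.62, 8.59, 4.73 and 6.98 CPM in control and at 38.2, 37.3, 16.1 and 30.0 CPM in Ctu1 iKO, with replicate 3 lowest in both groups and no overlap between them (log2 change 2.02 ± 0.29, SE, edgeR adjusted p = 0.00718). Cav1, the coat protein of caveolae, was at 87.2 to 111.9 CPM in control and at 181.1 to 252.0 CPM in Ctu1 iKO (log2 change 1.17 ± 0.13, SE, edgeR adjusted p = 0.00258). The annexins Anxa2, Anxa3 and Anxa5, the actin-binding proteins Actn1, Actn4, Cald1, Cnn2 and Tagln2, the myosin light chain Myl9, Actg1, Tubb2a and the calcium-binding proteins S100a4, S100a6 and S100a10 made up the other increases. Srf itself was lower, at 36.5 to 50.8 CPM against 58.8 to 62.6 CPM (log2 change -0.45 ± 0.11, SE, edgeR adjusted p = 0.0407), a call made in 2 of 8 fits that left out 1 library (edgeR adjusted p up to 0.117, without control 2). The count of 16 was 6 without control 2, 5 without control 3, 8 without control 4, 7 without Ctu1 iKO 2 and 10 without Ctu1 iKO 4.

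Of 27 genes of TGF-beta signalling, 5 were called higher, Acta2, Inhba, Tgfbi, Fst and Pmepa1, and 0 lower, with a median log2 change of 0.21. Inhba, a subunit of activin, was at 10.0 to 16.2 CPM in control and at 22.6 to 37.9 CPM in Ctu1 iKO (log2 change 1.19 ± 0.20, SE, edgeR adjusted p = 0.011). The replicate block gave 10 higher and 1 lower, against 15.9% and 17.5% of all genes. The count of 5 was 3 without control 1, control 2, control 3, Ctu1 iKO 2 or Ctu1 iKO 4. Of 37 matrix genes, 4 were called higher, Fbln2, Thbs2, Col6a2 and Timp1, and 0 lower. Fbln2, a fibulin, was at 38.7 to 58.2 CPM in control and at 81.2 to 141.1 CPM in Ctu1 iKO (log2 change 1.25 ± 0.18, SE, edgeR adjusted p = 0.00688). The matrix list moved unevenly between replicates. Its median log2 change was 0.57 in replicates 1 and 2 alone and 0.04 in replicates 3 and 4 alone. Fibronectin (Fn1) was at 5351, 5731, 3666 and 4636 CPM in control and at 13550, 11020, 5312 and 5039 CPM in Ctu1 iKO, and it was not called (edgeR adjusted p = 0.121), though it was higher in 4 of 4 pairs and called with the replicate block (adjusted p = 0.0124). With the replicate block 16 matrix members were higher and 2 lower, against 15.9% and 17.5% of all genes. The count of 4 was 1 without control 2 or control 3 and 8 without Ctu1 iKO 3. It was 2 without control 4, Ctu1 iKO 2 or Ctu1 iKO 4.

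Markers of cell state were compared too. Of the 15 mesenchymal markers tested, 3 were called higher, Vim, S100a4 and Snai1, and none lower, and the summed level of the 15 was 8383 to 10420 CPM in control and 12340 to 20520 CPM in Ctu1 iKO. Most of this sum came from Fn1, which was not called, and Vim. Vim, the filament protein vimentin, was at 2939 to 3441 CPM in control and at 4815 to 6234 CPM in Ctu1 iKO (log2 change 0.75 ± 0.10, SE, edgeR adjusted p = 0.00621). Of the 6 epithelial markers tested, Krt8 and Krt18 were called higher as well, and the summed level of the 6 was 503.6 to 579.9 CPM in control and 635.7 to 766.9 CPM in Ctu1 iKO. These counts were also small: that of 3 was 1 without control 2, 3 or 4 or Ctu1 iKO 2 and 5 without Ctu1 iKO 3, and that of 2 was 1 without control 2, 3 or 4 or Ctu1 iKO 2. In bulk RNA a larger share of cells of 1 kind and more RNA of a gene per cell cannot be told apart, and the part of cell state in the cytoskeleton, matrix and TGF-beta values was not tested.

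**Figure D3:**
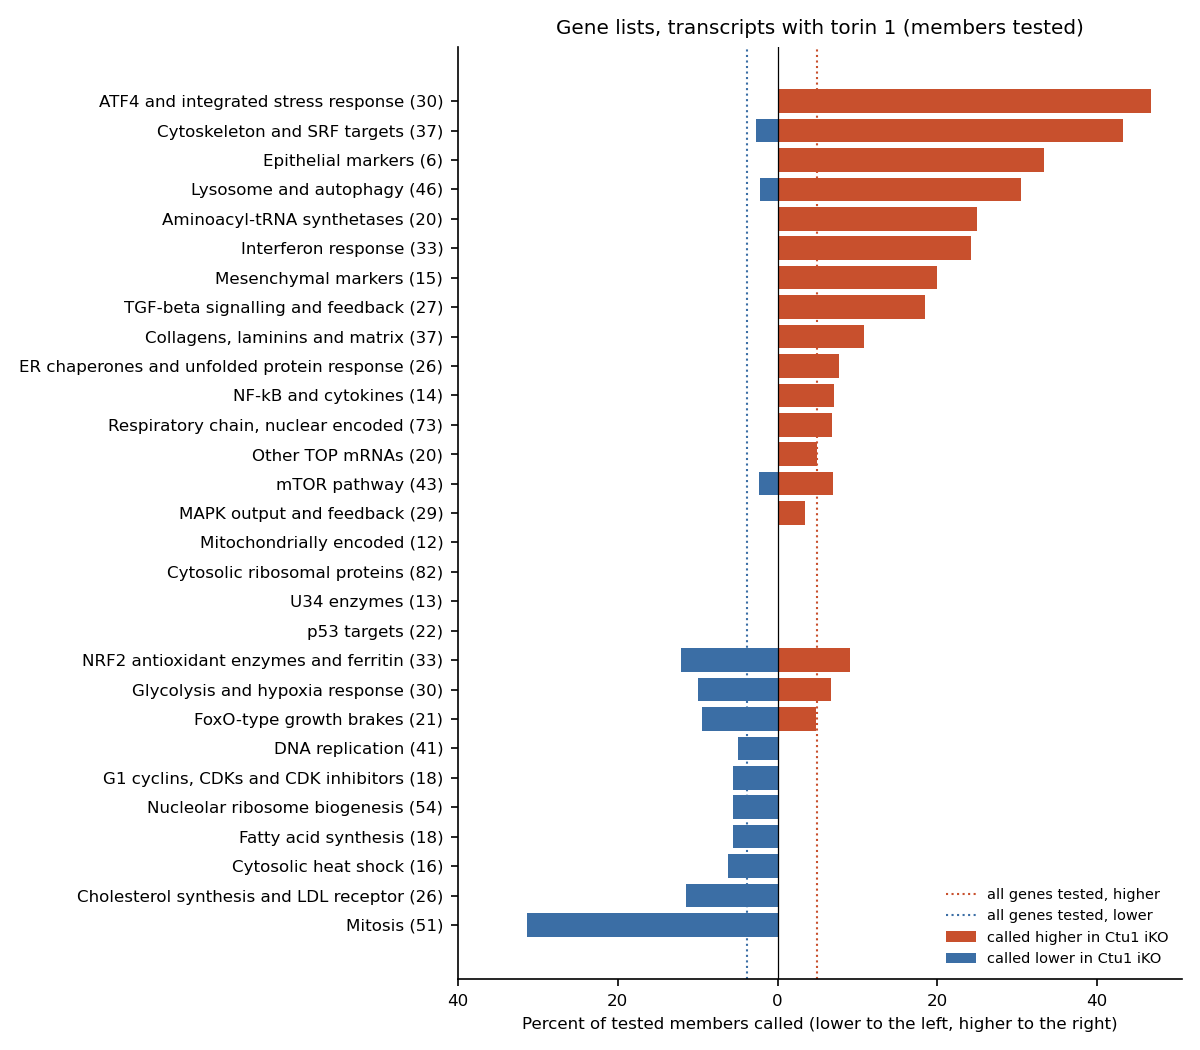
Percentage of the tested members of each gene list (number in brackets) that were called higher (orange, to the right) or lower (blue, to the left) in Ctu1 iKO with torin 1. Dotted lines give the shares over all 9662 genes, 4.93% higher and 3.77% lower. The stress response and cytoskeleton lists reach furthest to the right, followed by the epithelial markers (2 of 6 members), lysosome, synthetase and interferon lists, and the mitosis list reaches furthest to the left.

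Of 51 mitotic genes, 47 had a log2 change below 0, with a median of -0.28, and 16 were called lower and 0 higher. Cenpa was at 294.2, 290.7, 289.1 and 285.5 CPM in control and at 204.6, 220.1, 196.3 and 208.4 CPM in Ctu1 iKO. The groups were far apart compared with their spread (log2 change -0.48 ± 0.07, SE, edgeR adjusted p = 0.00539). Kif15 and Kif11, motors of the spindle, had log2 changes of -0.50 ± 0.07 (SE) and -0.53, Ncapd2, a condensin subunit, of -0.39 ± 0.07 (SE, called in 6 of 8 fits that left out 1 library, edgeR adjusted p up to 0.0645, without control 2) and Aurka, a spindle kinase, of -0.51. The cyclins Ccna2 and Ccnb2, the checkpoint proteins Bub1, Bub1b, Mad2l1 and Knl1, the kinetochore proteins Cenpe and Cenpf, Cdc25c, Espl1 and Kif20a were the others. Under the replicate block 40 members were lower and 1 higher. The count of 16 was 2 without control 2, 4 without control 3, 6 without control 4, 8 without Ctu1 iKO 1 or Ctu1 iKO 2, and 5 without Ctu1 iKO 4.

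Among other lists of the cell cycle the counts were small. Of 41 DNA replication genes, 2 were called lower, Cdc25a and Ung, which is 4.9% against 3.77% of all genes. The list had a median log2 change of -0.10, and 12 were lower with the replicate block, against 17.5% of all genes. Of 18 G1 cyclins, kinases and inhibitors, 1 was lower, Rbl2, which is 5.6% against 3.77% of all genes. None of 22 p53 targets was called by edgeR, and Cdkn1a, the inhibitor p21, had a log2 change of -0.03. Of 54 nucleolar genes of ribosome assembly, 3 were lower, Rrp1b, Wdr43 and Rrs1, with a median of -0.05, and 9 with the replicate block. The nucleolar shares were near those over all genes, which were 3.77% lower and 17.5% lower with the replicate block. The count of 2 was 0 without control 2, control 3 or Ctu1 iKO 4 and 1 without control 1, control 4 or Ctu1 iKO 1 or 2, that of 1 was 0 without any library but Ctu1 iKO 1, and that of 3 was 1 without control 2, 3 or 4 or Ctu1 iKO 1, 2 or 4.

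The cell cycle homology region (CHR, TTTGAA, both strands), through which mitotic genes are known to be timed, occurred in 10 of the 13 windows of called mitotic members (76.9%) and in 37 of the 47 windows of all members tested (78.7%), against 11.8% of all windows. The share in called members was thus close to that of the whole list. A few windows are shown with the element in capitals, in either orientation.
Cenpa, chr5:30666892-30666917, plus strand: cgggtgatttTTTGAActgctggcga
Cenpf, chr1:189688069-189688094, minus strand: cggcgggcagTTTGAAtcgctcgtgc
Aurka, chr2:172370523-172370548, minus strand: aaggagaaccTTTGAAttgtaacggc
Kif11, chr19:37376353-37376378, plus strand: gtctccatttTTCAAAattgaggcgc

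Of 26 genes of cholesterol synthesis and uptake, 23 had a log2 change below 0, with a median of -0.30, and 3 were called lower, among them the enzymes Fdft1 and Pmvk. Fdft1, squalene synthase, was at 166.1 to 178.5 CPM in control and at 132.8 to 147.7 CPM in Ctu1 iKO (log2 change -0.32 ± 0.07, SE, edgeR adjusted p = 0.0228). The replicate block gave 17 lower and 1 higher. The count of 3 was 0 without control 2 or control 3, 1 without Ctu1 iKO 4 and 6 without Ctu1 iKO 1. Of 18 genes of fatty acid synthesis, Elovl6, an elongase, was called lower (log2 change -0.65 ± 0.13, SE, edgeR adjusted p = 0.0179), but not without control 2 (0.0585). That count of 1 was 5.6% of the list, against 3.77% of all genes. It was 4 without Ctu1 iKO 1, 2 without control 1 and 8 with the replicate block, against 17.5% of all genes with the block.

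Antioxidant genes of the NRF2 list went both ways. Of 33 members, 4 were called lower (12.1%) and 3 higher (9.1%), against 3.77% and 4.93% of all genes. Gclc and Gclm, the subunits of the enzyme that starts glutathione synthesis, had log2 changes of -0.57 ± 0.07 and -0.40 ± 0.07 (SE), and Nqo1 and Txnrd1, a quinone and a thioredoxin reductase, of -0.92 ± 0.19 and -0.36 ± 0.08 (SE). Gss, the next enzyme of glutathione synthesis, was higher at 0.43 ± 0.08 (SE), as were Gpx1, a glutathione peroxidase, and Akr1b8, an aldo-keto reductase. The count of 4 was 1 without control 2 or control 3 and 2 without control 4 or Ctu1 iKO 2, and that of 3 was 0 without control 2 and 1 without control 3. The replicate block gave 10 lower and 6 higher, against 17.5% and 15.9% of all genes. Of 30 genes of glycolysis and the hypoxia response, Ndrg1 and Ldhb were higher and Slc16a3, Egln3 and Pdk1 lower, with a lower count of 5 without Ctu1 iKO 4 and a higher count of 1 without control 2, 3 or 4 or Ctu1 iKO 4. With the replicate block 8 were lower and 3 higher, against 17.5% and 15.9% of all genes. Of 73 nuclear genes of the respiratory chain, 5 were called higher, Atp5h, Sdhc, Cox7b, Ndufs5 and Ndufb3, with log2 changes of 0.30 to 0.42, against 4.93% of all genes, and the list had a median of 0.14. That count was 0 without control 2 or control 3, 2 without control 4 and 1 without Ctu1 iKO 2 or 4, and it was 27 with the replicate block, against 15.9% of all genes.

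**Figure D4:**
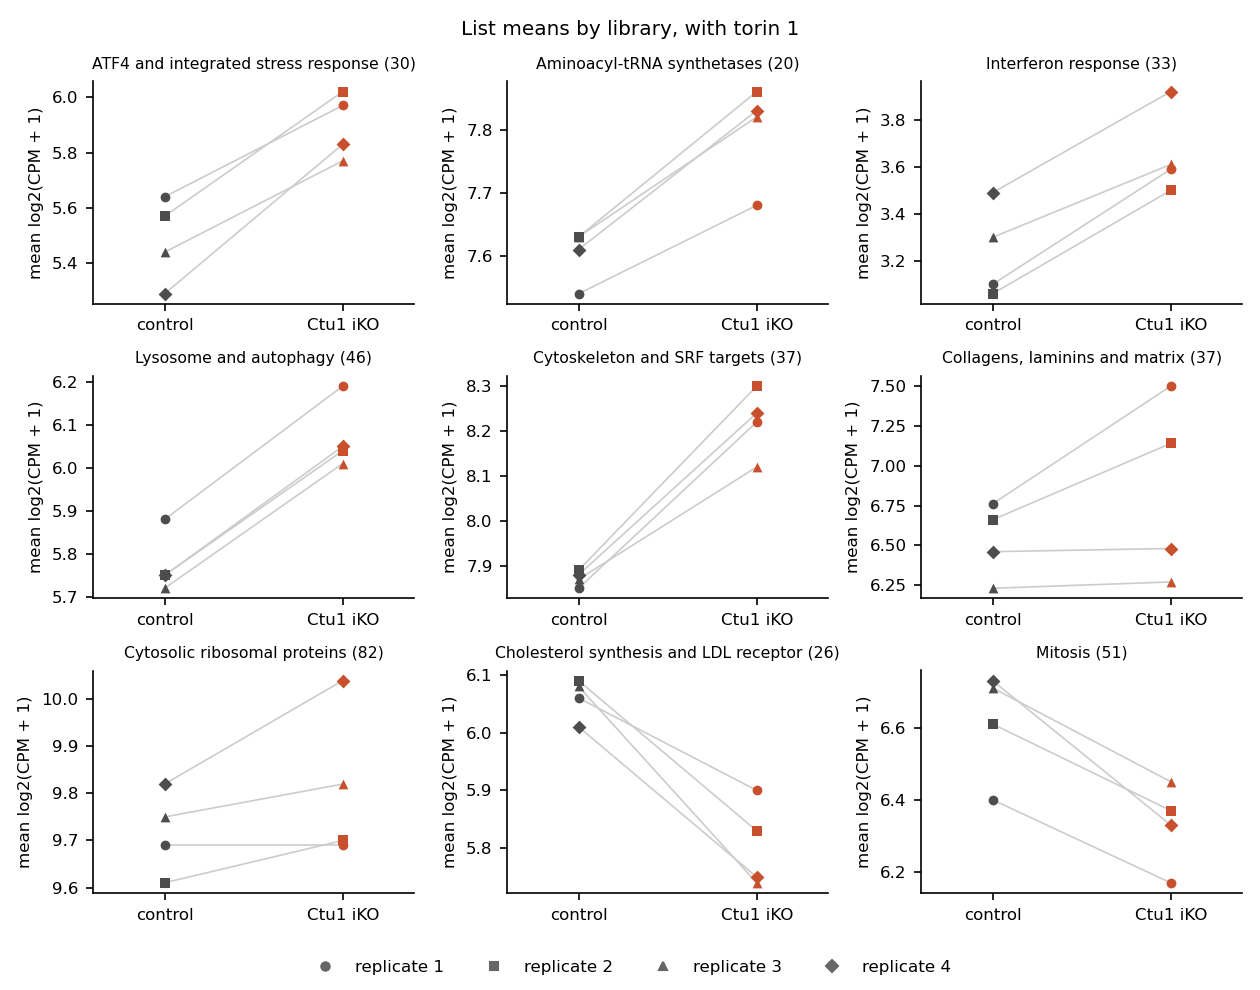
Mean log2(CPM + 1) over the tested members of 9 lists (number in brackets) in each library, with grey lines joining libraries of the same replicate number and axes that do not start at 0. The Ctu1 iKO point is above its control in each of the 4 pairs for the stress response, synthetase, interferon, lysosome and cytoskeleton lists and below it for the cholesterol and mitosis lists, while the matrix list rises in replicates 1 and 2 and stays nearly level in replicates 3 and 4.

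The enzymes of the U34 base showed no called change. Ctu2, the partner of Ctu1, was at 41.1, 43.7, 44.3 and 46.8 CPM in control and at 50.02, 54.6, 49.6 and 52.7 CPM in Ctu1 iKO. The groups did not overlap, but the test was not passed (log2 change 0.23 ± 0.07, SE, edgeR adjusted p = 0.0686), whereas it was passed with a replicate block (adjusted p = 0.0144). Elp3, the catalytic subunit of Elongator, was at 99.2 to 118.3 CPM in control and at 119.8 to 133.5 CPM in Ctu1 iKO and passed only with the replicate block (log2 change 0.21 ± 0.08, SE, edgeR adjusted p = 0.123, and 0.0142 with the block). The other 11 genes of the list had values on both sides of 0, and the list median was -0.03.

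Codon content was compared because the thiolated tRNAs read AAA. The called increases had a median of 1.9% AAA codons and the called decreases of 2.6%, against 2.19% over all genes tested, with median transcript lengths of 2520 and 3628 bases against 3070 bases. Within each library, the slope of log2(CPM + 1) on the percentage of AAA codons over 9607 genes was -0.0022, 0.0008, 0.0210 and 0.0089 in control and -0.0318, -0.0354, 0.0288 and 0.0082 in Ctu1 iKO. The groups overlapped, and the mean slope was lower by -0.0147 in Ctu1 iKO (p = 0.371 by a two-sided exact permutation test, which cannot go below 0.0286). Single libraries moved this difference, to -0.0054 without Ctu1 iKO 2, -0.0066 without Ctu1 iKO 1 and -0.0268 without Ctu1 iKO 3. The slope on log2 transcript length, a sign of RNA quality, was 0.251 ± 0.037 in control and 0.206 ± 0.078 in Ctu1 iKO (SD, n = 4 each, p = 0.4 by the same exact test). Ctu1 iKO 4 stood apart at 0.101, against 0.197 to 0.277 in the other Ctu1 iKO libraries. The difference in this slope was -0.0444 with it and -0.0093 without it, and -0.0681 without Ctu1 iKO 1.

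The same genotypes were compared with DMSO, in replicates 1 to 3, to see whether the changes needed torin 1. The choice of replicates 1 to 3 also used the RNA data itself. The libraries labelled Ctu1 iKO DMSO 4 and 5 had correlations of 0.705 and 0.699 along the torin 1 axis, the side of torin 1. Control DMSO 4, 5 and 6 lay on the side of their labels, with -0.526, -0.390 and -0.466 along the genotype axis, and were left out too. With DMSO, 518 of 10119 genes were called (5.12%), 336 higher (3.32%) and 182 lower (1.8%). Of the genes called with torin 1, 343 were called with DMSO too, which is 40.8% of the torin 1 calls and 66.2% of the DMSO calls, and all 343 had the same direction. Of the 837 torin 1 calls with a value in DMSO, 835 had the same sign (99.8%), against 82.5% over all genes tested. Their median size was 0.46 with torin 1, on which they were chosen, and 0.36 with DMSO on the log2 scale, against 0.15 and 0.13 over all genes tested. Atf5 changed by 1.46 ± 0.18, Dynap by 2.25 ± 0.28, Hexa by 0.95 ± 0.12 and Cenpa by -0.37 ± 0.08 with DMSO (SE, log2). By list, 10 stress response, 9 interferon, 10 lysosome and 7 cytoskeleton genes were higher with DMSO and 4 mitotic genes lower.

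The difference of the genotype effect between torin 1 and DMSO was tested as an interaction. No gene of 9623 was called by edgeR (0.0%), 153 had an unadjusted p under 0.05, and DESeq2 called 2, Ifrd1 and Baiap2. For Atf5 the effect with torin 1 minus that with DMSO was 0.18 ± 0.24, for Dynap -0.36 ± 0.33, for Dnmt3b -0.49 ± 0.18 and for Cenpa -0.12 ± 0.09 (SE, log2, edgeR adjusted p of 1 each). A p that misses the threshold does not show that the effects were equal, and differences of the size of these errors were not detectable here.

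**Figure D5:**
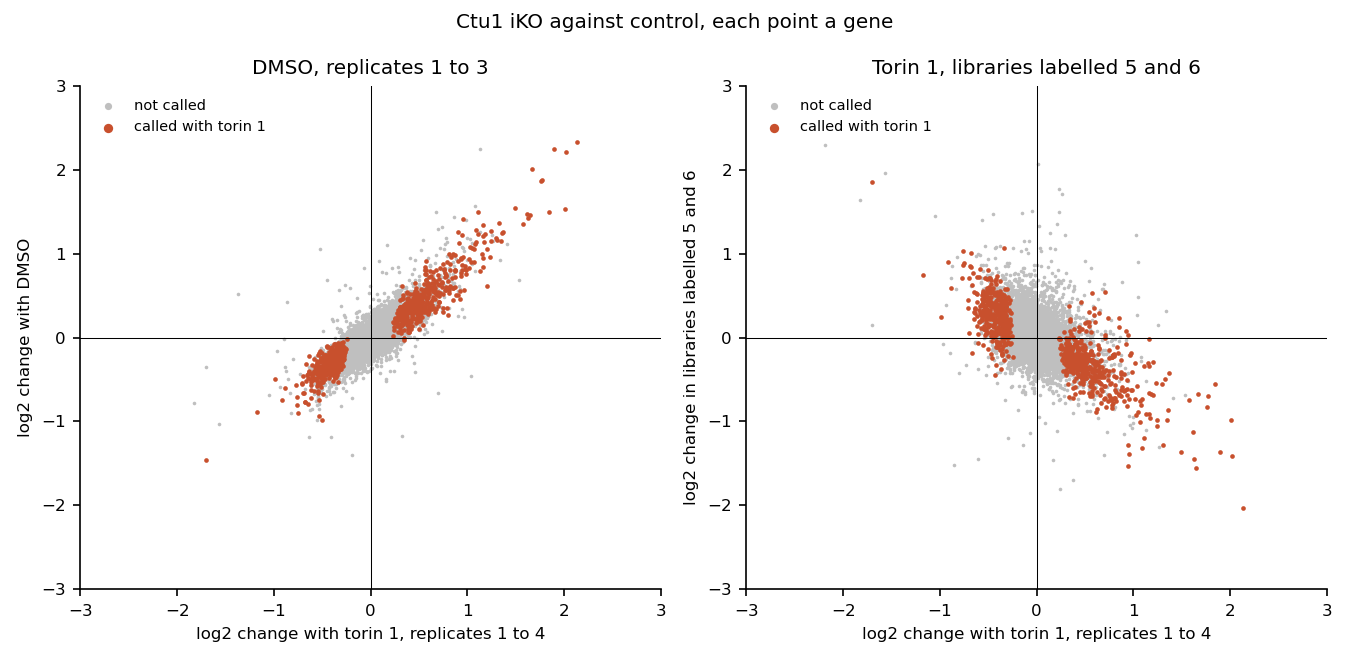
Log2 change between Ctu1 iKO and control for each gene with torin 1 in replicates 1 to 4 (x axis) against that with DMSO in replicates 1 to 3 (left) and against that in the torin 1 libraries labelled 5 and 6 (right), with orange points for the 840 genes called with torin 1. On the left 835 of 837 orange points with a value have the same sign on both axes. On the right 769 of 840 orange points have opposite signs, against 6640 of 9660 over all genes tested.

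Footprints from the same cultures were set beside the transcripts. In footprints, 114 of 9906 genes were called (1.15%), 26 higher (0.262%) and 88 lower (0.888%), on libraries of 4602092 to 13558809 counts. Dynap and Txnip were called higher there too, with log2 changes of 2.50 and 1.80. The count was 448 with a replicate block, 189 higher and 259 lower, and 387 with DESeq2, 173 higher and 214 lower, so that the share of higher calls was 42.2% and 44.7% there against 22.8%. It was 36 without control 2, 55 without control 3, 42 without control 4, 48 without Ctu1 iKO 2, 57 without Ctu1 iKO 3 and 38 without Ctu1 iKO 4. The 26 on the higher side became 13, 3, 2 and 6 without control 1, 2, 3 and 4 and 5, 11 and 3 without Ctu1 iKO 2, 3 and 4. Cytosolic ribosomal protein genes differed between the assays. Of 82 members, 0 were called in transcripts by edgeR, with a median log2 change of 0.09, and 14 were called higher with a replicate block, a share close to the 15.9% of all genes, while 48 were called lower in footprints, with a median of -0.74. Rps25 was at 798.1 to 901.2 CPM in control and at 896.7 to 1035 CPM in Ctu1 iKO in transcripts (log2 change 0.14 ± 0.07, SE, edgeR adjusted p = 0.274) and changed by -0.64 in footprints (edgeR adjusted p = 0.0156). The RNA groups overlapped by a few CPM.

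In 1 model of both assays, the change in footprints differed from that in transcripts for 76 of 9908 genes (0.767%), 4 higher (0.0404%) and 72 lower (0.727%), and with libraries scaled by their totals alone for 58, of which 9 were higher. A replicate block gave 154, but a term for each culture, which models that both assays used the same cultures, gave 82, with 64 of the 76 among them. The count of 76 was 47, 41, 50 and 47 without the RNA libraries of control 1, control 2, Ctu1 iKO 3 and Ctu1 iKO 4, and 49 without the footprint library of control 2 or of control 4. Of the 82 ribosomal protein genes 46 were lower, with a median of -0.83. Eef1a1, an elongation factor whose mRNA carries the TOP motif, had a difference of -1.55 ± 0.12, Vim of -1.06 ± 0.17 and Acta2 of -2.10 ± 0.34 (SE, log2, edgeR adjusted p of 3.1e-06, 0.00482 and 0.00482). Acta2 footprints did not follow its transcript (log2 change -0.08), and its coding sequence is so similar to that of other actins that short reads may be split between them. The 4 genes on the higher side were Ibtk, Zbtb24, Tedc1 and Zkscan5, a count that was 0 without the RNA library of control 2, control 4 or Ctu1 iKO 2, 3 or 4, 1 without that of control 1 or 3 or the footprint library of control 2, and 2 without the RNA library of Ctu1 iKO 1 or the footprint library of control 4, while it was 8, 9 and 6 without the footprint libraries of Ctu1 iKO 1, Ctu1 iKO 2 and control 3, and their transcripts were not called (log2 changes of 0.03, 0.05, -0.27 and -0.17).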

How the data were processed

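Poly(A) RNA-seq and ribosome footprint libraries of the same cultures were deposited as raw counts per gene, 1 table per library. Per the labels, reads were trimmed with cutadapt 3.4 and aligned to mm10 with STAR. The authors' methods describe paired-end stranded poly(A) libraries and a facility workflow for RNA, and name a human genome for the footprints, while the symbols are those of mouse. Whether counting used strand, which bears on antisense and overlapping genes, is not given in the sources used here. Every entry of the torin 1 tables reached 100 or more footprint counts somewhere, and 11 symbols on 23 entries were left out.

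Libraries were grouped by their labels. The quasi-likelihood test of edgeR 4.0.16 (R 4.3.3) was run on genes averaging 10 or more counts, after TMM scaling, without covariates and with Benjamini-Hochberg adjustment (threshold 0.05). CPM of the torin 1 libraries use TMM library sizes, and DMSO and marker CPM use totals. Interactions were tested in 1 edgeR model, for the assays also with a term for each culture. Slopes were compared by exact permutation of libraries (70 splits). The pairing check used correlations of deviations from group means, which were 0.733, 0.687, 0.758 and 0.479 for the 4 same-numbered pairs, all over 0.1. Unlike-numbered pairs within replicates 1 and 2 or 3 and 4 also correlated, control 3 with Ctu1 iKO 4 at 0.567 and control 2 with Ctu1 iKO 1 at 0.379, so pairing by number and by these sets cannot be told apart fully. It comes from the data, since the labels do not say what a number shares. Alternatives were DESeq2 1.42.0, other scalings and filters, replicate and batch terms and leaving out libraries. No label names a batch, and the batch term set replicates 1 and 2 against 3 and 4. The procedures were tested on simulated data. The share of calls that fell on unchanged genes was above the threshold of 0.05 with the replicate term and below it without. Counts with the replicate block may thus hold more false calls than the threshold states.

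Coordinates are from GENCODE M21 (GRCm38). Of 9913 symbols, 9748 matched by symbol and 135 by another symbol. Promoters come from RefSeq (GRCm38.p6), and guides were taken from the study's supplement and matched to GRCm38. Named genes were the U34 enzymes, a few fixed genes, the 15 largest changes in each direction among called genes with at least 100 mean counts and no overlap, and up to 4 called members per list and direction with its highest members. Members that complete a list, the genes with a promoter match and a few members that were not called were named after their values were seen. Members and lists were chosen with earlier results of these data known. A few genes are not reported here.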

Additional observations from a re-analysis of the deposited data

Results flagged for a closer look

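In 14 of 350 groups of 4 libraries checked, 1 library stood apart from the other 3 by a gap that took up most of the range of the group, beyond the critical value of Dixon's test, and chance alone sets 1 library apart in about 1 of 20 groups. The share of the range is given for each. In the control libraries with torin 1, replicate 4 stood highest for Dynap (0.899), Kti12 (0.912), Trim25 (0.837) and Cdk4 (0.84), replicate 3 stood lowest for Col6a2 (0.891) and highest for Ndrg1 (0.839), replicate 2 stood lowest for Eef1a1 (0.863), and replicate 1 stood highest for Cav1 (0.894) and Atp6v0d1 (0.866). In the Ctu1 iKO libraries with torin 1, replicate 4 stood highest for Rps3 (0.909) and lowest for Cenpe (0.898), replicate 3 highest for Gclm (0.881), replicate 2 highest for Nars (0.873) and replicate 1 lowest for Elp3 (0.842). For Dynap, Cav1 and Atp6v0d1, whose control stood high, the groups still did not overlap.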

How the results depend on the processing

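For transcripts with torin 1, the 840 calls became 1633 with DESeq2, 3232 with a replicate block, 2328 with a batch block, 12 in replicates 1 and 2 alone, and 0 with all 6 replicates by edgeR, with or without the replicate block (249 and 1108 at an unadjusted p under 0.05). The batch block set replicates 1 and 2 against 3 and 4, and no label names a batch. Leaving out 1 library gave 189 to 717. Library totals, DESeq2 size factors, the other filters, halved counts and replicates 3 and 4 alone stayed within 1.5 times. The interaction with treatment went from 0 calls to 2 with DESeq2 and was 0 under each edgeR alternative. The 114 footprint calls became 387 with DESeq2, 448 with a replicate block, 293 with a batch block, 0 in replicates 1 and 2 alone, 479 with all 6 replicates and 1425 with those and the replicate block, and 36 to 93 without 1 library. The 76 genes whose footprints and transcripts changed unequally became 177 with DESeq2, 154 with a replicate block and 41 to 78 without 1 library. The cause of these changes was not tested. A term for each culture gave 82. The slope tests without 1 library or with a replicate block could not have passed (smallest possible p 0.0571 and 0.125) and say nothing about stability. Of the named genes that were called, 1 turned its sign under library totals, the replicate block, replicates 1 and 2 or 3 and 4 alone or all 6 replicates, namely Ddit3 (0.96, and -0.07 with all 6 replicates on the log2 scale). Named genes that were not called turned as well, among them Ccng2 (0.23, and -0.08 in replicates 1 and 2 alone). Depth was high for RNA, with 838 genes called on halved counts. Whether the number and spread of libraries limited the precision was not tested.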
